A study of Mus musculus with 30 samples.

Results

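The change from embryoid bodies to neurons was followed in Puf60_mEx5_HOM, a clonal CGR8 mouse embryonic stem cell line. It is described as lacking exon 5 of Puf60 on both alleles after CRISPR-Cas9 editing. Its 4 libraries of these stages were taken by their labels out of 30 in the series, 2 of embryoid bodies on day 8 (EB8) and 2 of neurons at 7 days in vitro (DIV7). The series compared the parental CGR8 line (WT) with 4 edited lines at 3 stages, 2 libraries each, by sequencing of polyA RNA. Besides WT, whose 4 EB8 and DIV7 libraries serve as the reference, the line Puf60_pEx5_HOM is used for comparison, which includes exon 5 constitutively from both alleles (4 libraries). All these cells formed aggregates without LIF, received retinoic acid, were dissociated as neural progenitors at EB8 and were plated for neuronal culture, and the labels state no difference between the lines other than the edit and its clonal isolation. The series text mentions independent clones without saying which library came from which, so p-values here measure the spread between libraries, which may be technical.

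Puf60 binds the pyrimidine-rich tract before the 3′ splice site and helps the spliceosome to define exons, together with the U2AF factors. Exon 5 is itself an alternative coding exon, so the gene makes proteins with and without the stretch it encodes. As progenitors become neurons, repressors such as Ptbp1 give way to neuronal splicing factors, and very short exons, called microexons, are spliced in by Srrm4 and its relatives.

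Expression is given as spliced reads: reads across the exon-exon junctions of a gene, divided by the library's scaled total and given on the usual CPM scale. The 4 libraries of the line held 23204150 to 27667359 such reads. Changes are log2 differences of CPM + 1 with their standard error, which understates the change of low genes, and n = 2 libraries per group throughout. A gene was called, that is, said to rise or fall, at a Benjamini-Hochberg adjusted p under 0.05 over all 13929 genes tested by limma and at least a 2-fold change. Spliced reads of 5 Y-linked genes numbered 0 in all 4 libraries of the line, against summed levels of 101 and 109.9 CPM at EB8 and 87.3 and 102 CPM at DIV7 in WT. Effects of the exon deletion and of other differences between the lines, such as this one, cannot be told apart.

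Exon 5 of Puf60 is described first because its loss defines the line. It is 51 nt long and is coding in the GENCODE M21 annotation. Inclusion is given as percent spliced in (PSI), the share of transcripts that contain a sequence, as the authors computed it per library. In the line the PSI of exon 5 was 13% and 12.3% at EB8 and 9.83% and 12.9% at DIV7. The libraries of the stages overlapped, and the mean PSI changed by -1.25 points. The adjusted p was 0.737 by limma, which was fitted to the log2 ratio of including to excluding reads. Reads that join the upstream exon to exon 5 numbered 1 and 3 at EB8 and 0 and 1 at DIV7. Reads that join exon 5 to the downstream exon numbered 268 and 314 at EB8 and 133 and 183 at DIV7, so the remaining PSI rested on the downstream side. Such reads are not expected from a line without any exon 5 sequence, and their source was not tested. In WT the upstream junction had 496 and 479 reads at EB8 and 426 and 475 at DIV7. There the PSI rose from 26.9% and 26.1% to 42.9% and 44%, and the difference between the courses of the line and WT was -18.1 points (unadjusted p = 0.00261, adjusted p = 0.633, not called). The intron that spans exon 5 had PSI values of 13.9% and 12.9% at EB8 and 6.58% and 12.2% at DIV7 in the line. All 4 lay above the WT values of 2.48% to 2.69%, and reads over its 2 ends were unequal, with 16 against 112 and 20 against 116 at EB8. Whether these one-sided reads enter the exon's PSI was not tested.

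Puf60 itself was measured at 228 and 250.3 CPM at EB8 and 164 and 178 CPM at DIV7. Both DIV7 libraries were below both EB8 libraries, and the change of -0.48 ± 0.07 (adjusted p = 2.21e-06 by limma) was under 2-fold. The same change was -0.37 in WT, and the difference between the courses was -0.11 ± 0.10 (adjusted p = 0.665 by limma), not called. WT was at 331 and 315 CPM at EB8 and 240 and 261 CPM at DIV7, above every library of the line at the same stage. The line differed from WT by -0.44 ± 0.07 at EB8 (adjusted p = 0.000194 by limma) and -0.55 ± 0.07 at DIV7 (adjusted p = 8.71e-05 by limma). Both differences were under 2-fold.

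Between EB8 and DIV7, 2191 genes rose in the line (15.7% of those tested) and 1631 fell (11.7%). When libraries were scaled to their total of spliced reads instead, 1891 rose and 2091 fell, a share of higher calls of 47.5% against 57.3%. That scaling put the median change over all genes at -0.13 in place of 0, a shift against which the groups below can be read. Of the gene lists examined, those of GABA and glycine transmission and of the vesicle cycle had the highest median changes. Those of neural progenitors, of retinoic acid response with Hox genes and of the cell cycle had the lowest.

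Among the genes that rose most was Tac1, the precursor of the neuropeptide substance P, with 1.64 and 1.49 CPM at EB8 and 80.9 and 112 CPM at DIV7. Both neuron libraries lay far above both embryoid body libraries (5.23 ± 0.28, adjusted p = 1.28e-12). Grm5, a metabotropic glutamate receptor, was at 1.11 and 0.776 CPM at EB8 and 59.7 and 55.9 CPM at DIV7 and separated the stages as cleanly (4.92 ± 0.15, adjusted p = 1.62e-16). Plppr4, a membrane protein of excitatory synapses, went from 0.957 and 0.485 CPM to 53.7 and 59 CPM (5.07 ± 0.18, adjusted p = 1.21e-15). Slc4a10, a sodium bicarbonate transporter of neurons, had 2.31 and 1.91 CPM at EB8 and 93.9 and 110.3 CPM at DIV7, a rise of 5.05 ± 0.16. Secretogranin Scg2, a protein of dense-core vesicles, was at 2.07 and 1.32 CPM at EB8 and 70.0 and 89 CPM at DIV7. Vsnl1, a neuronal calcium sensor, stood at 5.28 and 4.11 CPM at EB8 and 145 and 156 CPM at DIV7. For these 3 genes, too, every DIV7 library exceeded every EB8 library. Vstm2a rose by 4.92 ± 0.17 and AW551984, a gene without a settled name, by 4.79 ± 0.17, from 18.7 and 18.4 CPM to 508 and 577 CPM. The remaining 2 of the 10 largest rises were glial: Tnc, the matrix glycoprotein tenascin C, and Gfap, the intermediate filament of astrocytes.

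Genes of synaptic transmission rose as groups, against a median change of 0 over all genes tested. Of 35 measured genes of the synaptic vesicle cycle, 32 rose and 1 fell, with a median of 2.47. Syn2, a synapsin that tethers vesicles, was at 12.3 and 14.1 CPM at EB8 and 195 and 197 CPM at DIV7, and Cplx1, a complexin that clamps fusion, was at 29.6 and 26.9 CPM at EB8 and 325 and 343 CPM at DIV7. Neither gene's stages overlapped (3.79 ± 0.14, adjusted p = 1.58e-15 and 3.52 ± 0.18, adjusted p = 1.55e-13). The 1 member that fell was Unc13b, a vesicle priming factor, from 107 and 119 CPM to 30.3 and 30.6 CPM (-1.85 ± 0.13, adjusted p = 5.77e-11). Voltage-gated channels followed with 31 of 37 higher and 0 lower (median 1.64), among them the potassium channel Kcnd2 (3.35 ± 0.20, adjusted p = 3.8e-12). Of 29 synaptic adhesion genes, 24 rose and 1 fell (median 1.79). Ncam2 was at 11.4 and 11.2 CPM at EB8 and 150.4 and 167 CPM at DIV7, while Cntn2, an adhesion molecule of growing axons, fell by 1.37 on the log2 scale. Of 20 neuropeptide genes 13 rose and 0 fell, and Penk, the enkephalin precursor, was at 0.802 and 0.679 CPM at EB8 and 19.3 and 21.6 CPM at DIV7. The pan-neuronal list was more mixed, with 19 of 30 higher and 1 lower (median 1.77). Its summed level was 5811 and 6611 CPM at EB8 and 15920 and 16450 CPM at DIV7. Tubb3, the neuronal tubulin, was already at 621 and 763 CPM at EB8 and reached 1043 and 1019 CPM, and the change of 0.58 ± 0.20 (adjusted p = 0.0131 by limma) stayed under 2-fold. Nefm, the medium neurofilament, was the member that fell, from 99.5 and 119.7 CPM to 26.5 and 29.9 CPM (-1.92 ± 0.13, adjusted p = 1.8e-11). In bulk RNA, fewer cells of a type and less RNA per cell cannot be told apart, here and for every marker group below.

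The labels call the DIV7 cells glutamatergic, so transmitter markers were examined. Of 29 genes of GABA and glycine transmission, 26 rose and 0 fell, with a median of 2.67. Of 35 glutamate receptors and transporters, 25 rose and 3 fell (median 2.00). Levels of different genes can be compared only per length, for which the authors' deposited table gives a single RPKM value per group, without an error. On that scale Gad1, which makes GABA, went from 23.7 to 138 RPKM in the line. Slc32a1, the vesicular transporter of GABA and glycine, went from 35.5 to 155 RPKM, and the glycine transporter Slc6a5 from 12.5 to 66.4 RPKM. The vesicular glutamate transporters were lower: Slc17a6 went from 3.07 to 20.9 RPKM, and Slc17a7 was at 0.47 and 0.05 RPKM. Per library, Slc17a6 had 6.11 and 6.59 CPM at EB8 and 47.9 and 55.5 CPM at DIV7 (2.84 ± 0.22, adjusted p = 1.8e-10). Slc17a7 had 1.36 and 1.52 CPM at EB8 and 0.125 and 0.194 CPM at DIV7, and its change of -1.07 ± 0.27 (adjusted p = 0.00143 by limma) was -0.96 under quantile normalization, below 2-fold. Thus Slc17a7, a defining marker of cortical glutamatergic neurons, was near 0, and the inhibitory markers named were the higher of these at DIV7. Receptors for glutamate rose: Grin1, the obligate NMDA receptor subunit, was at 28.7 and 30.6 CPM at EB8 and 426 and 443 CPM at DIV7 (3.83 ± 0.22, adjusted p = 9.01e-12). Of GABA receptor subunits, Gabra2 rose by 3.98 ± 0.19 and Gabra5 by 3.85 ± 0.16.

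**Figure D1:**
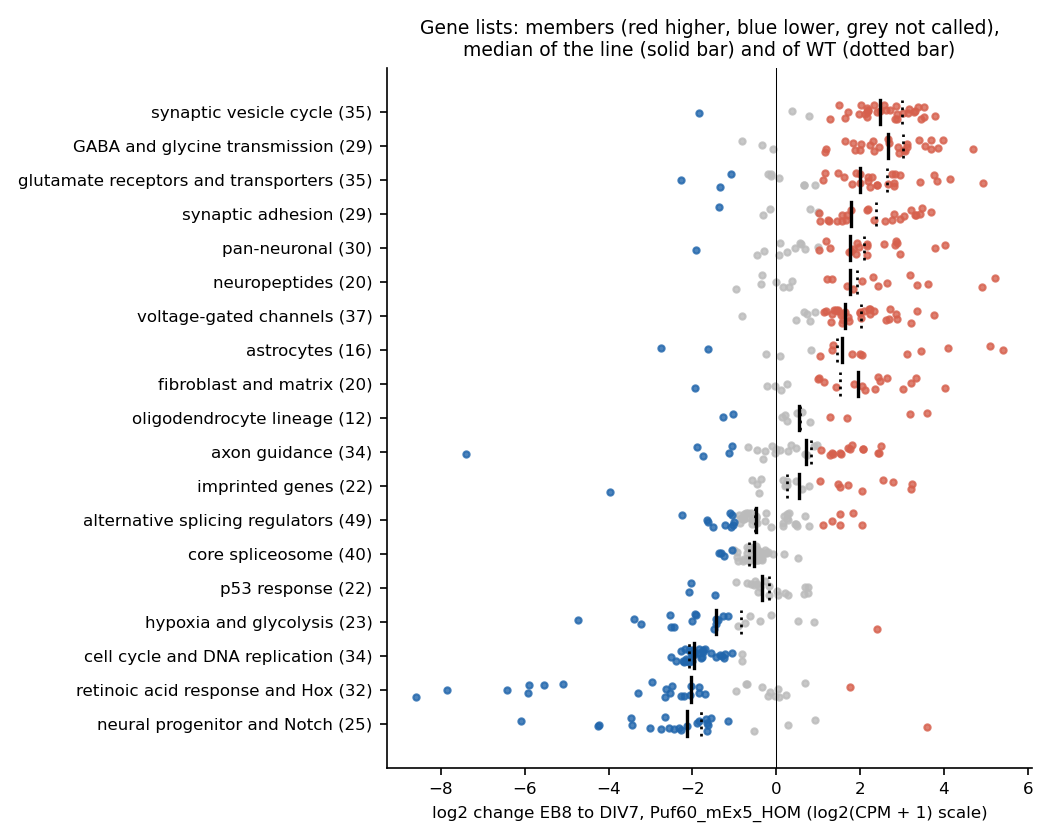
Log2 change from EB8 to DIV7 in Puf60_mEx5_HOM (x axis, log2(CPM + 1) scale) for each measured member of 19 gene lists (y axis, number of members in parentheses); red points rose, blue points fell and grey points were not called, solid bars are the line's medians and dotted bars the medians of WT. Synaptic lists lie right of 0 with solid bars left of the dotted ones, and progenitor, Hox and cell cycle lists lie left of 0.

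Genes of retinoic acid response fell with the Hox genes: 20 of 32 measured members fell and 1 rose, with a median of -2.04. The largest fall of all named genes was that of Cyp26b1, an enzyme that degrades retinoic acid. It was at 1249 and 1574 CPM at EB8 and 4.97 and 1.24 CPM at DIV7 (-8.58 ± 0.49, adjusted p = 5.19e-11). Its relative Cyp26a1 was at 534 and 533 CPM at EB8 and 10.2 and 6.18 CPM at DIV7 (-5.90 ± 0.49, adjusted p = 7.56e-09). In both genes no DIV7 library came near an EB8 library. The retinoid-binding protein Crabp2 fell by 5.93 on the log2 scale. Stra8, a gene that retinoic acid induces, went from 325 and 216 CPM to 0.0835 and 0.233 CPM (-7.85 ± 0.31, adjusted p = 5.74e-14). Hoxb9, a trunk-level Hox gene, went from 196 and 227 CPM to 1.8 and 1.17 CPM (-6.43 ± 0.17, adjusted p = 2.52e-17). The single riser was Hoxc5, at 18.8 and 16.8 CPM at EB8 and 67.9 and 58.3 CPM at DIV7 (1.77 ± 0.15, adjusted p = 4.87e-10). Retinoic acid was given only before EB8.

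Neural progenitor and Notch genes fell in 21 of 25 measured members, with a median of -2.13. Dbx1, a homeobox factor of spinal progenitors, was at 132 and 149.7 CPM at EB8 and 1.59 and 0.661 CPM at DIV7 (-6.10 ± 0.22, adjusted p = 1.44e-15). The dorsal progenitor factors Pax3 and Pax7 fell by 4.25 and 4.22 on the log2 scale. Olig2, which marks motor neuron progenitors and oligodendrocyte precursors, was the member that rose, from 0.0617 and 0.0646 CPM to 15.3 and 9.21 CPM (adjusted p = 5.23e-10 by limma). Cell cycle and DNA replication genes fell in 32 of 34 members and rose in 0 (median -1.96). Aurkb, a mitotic kinase, was at 75.2 and 73.5 CPM at EB8 and 12.5 and 14.2 CPM at DIV7 (-2.40 ± 0.22, adjusted p = 9.83e-09), and the mitotic cyclin Ccnb2 was at 64.7 and 61.3 CPM at EB8 and 10.9 and 9.71 CPM at DIV7 (-2.50 ± 0.19, adjusted p = 3.13e-10). The stages did not overlap for these 2 genes.

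Hypoxia and glycolysis genes also fell, in 15 of 23 members with 1 higher (median -1.44). The median in WT was -0.85, and 0 of the 23 had a called difference between the courses. Slc2a1, the basal glucose transporter, was at 921 and 588 CPM at EB8 and 28.6 and 24.8 CPM at DIV7 (-4.74 ± 0.36, adjusted p = 2.65e-09). Slc16a3, a lactate exporter and one of the 10 largest falls, was at 272 and 196 CPM at EB8 and 3.59 and 3.77 CPM at DIV7 (-5.63 ± 0.47, adjusted p = 8.58e-09). The EB8 libraries of the line differed from each other for both genes but stayed above DIV7. The member that rose was Eno2, the neuronal enolase (2.40 ± 0.21, adjusted p = 2.39e-09). The last of the 10 largest falls was Arg1, an arginase, with 55.5 and 56.9 CPM at EB8 and 0.209 and 0.0777 CPM at DIV7 (-5.65 ± 0.21, adjusted p = 1.49e-15).

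Of 34 axon guidance genes 14 rose and 5 fell (median 0.71). Over all genes tested 15.7% rose and 11.7% fell, so the share of guidance genes that fell was near that of all genes. Robo2, a Slit receptor, was at 49.8 and 54.3 CPM at EB8 and 289 and 308 CPM at DIV7 (2.50 ± 0.14, adjusted p = 1.18e-12). Robo3, which lets commissural axons reach the midline, moved the other way, with 332 and 390.5 CPM at EB8 and 1.29 and 0.972 CPM at DIV7 (-7.41 ± 0.19, adjusted p = 2.52e-17). Subunits of nicotinic acetylcholine receptors fell as well: Chrna3 was at 66.9 and 84.1 CPM at EB8 and 1.75 and 1.83 CPM at DIV7 and Chrnb4 at 30.7 and 42.4 CPM at EB8 and 1.34 and 1.17 CPM at DIV7. Of 10 motor and cholinergic genes measured, 5 fell and 1 rose, and the defining enzyme Chat stayed at or under 1.45 CPM in all 4 libraries. Of 24 spinal and hindbrain fate factors 7 fell and 1 rose, and Lhx1, an interneuron factor, was at 289 and 358 CPM at EB8 and 86.2 and 92.2 CPM at DIV7 (-1.84 ± 0.16, adjusted p = 1.1e-09). Of 6 monoamine genes measured 3 fell, among them Th, the tyrosine hydroxylase, from 13.4 and 18.2 CPM to 0.543 and 0.427 CPM.

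Markers of other cell types were measured beside these. Their counts stand beside the 15.7% of all genes tested that rose and the 11.7% that fell. Astrocyte genes rose in 11 of 16 members and fell in 2 (median 1.58). Gfap was at 4.81 and 1.94 CPM at EB8 and 188 and 107 CPM at DIV7 (5.11 ± 0.60, adjusted p = 5.83e-07), Tnc at 1.88 and 1.03 CPM at EB8 and 100.4 and 102 CPM at DIV7 (5.40 ± 0.30, adjusted p = 5.83e-12), and Atp1b2, a sodium pump subunit of astrocytes, at 9.01 and 6.27 CPM at EB8 and 151 and 140.2 CPM at DIV7. For each of them both DIV7 libraries were above both EB8 libraries. Sox9, a factor of progenitors and astrocytes, was among those that fell (-2.75 ± 0.32, adjusted p = 2.35e-07). Fibroblast and matrix genes rose in 15 of 20 members and fell in 1 (median 1.95). Their summed level was 1844 and 1487 CPM at EB8 and 6645 and 2681 CPM at DIV7, so the DIV7 libraries A and B of the line differed from each other. In WT the sums were 1376 and 1295 CPM at EB8 and 3798 and 1535 CPM at DIV7, with library A again the higher. Col1a1, a collagen of fibroblasts, was at 259 and 123 CPM at EB8 and 1496 and 409 CPM at DIV7 in the line. Of 12 oligodendrocyte lineage genes 4 rose and 2 fell, with Pdgfra, a receptor of the precursors, at 5.52 and 3.33 CPM at EB8 and 60.5 and 37.5 CPM at DIV7. Of 11 endothelial genes 0 rose and 2 fell. Only 2 microglia and blood genes passed the filter, and their sum stayed between 0.37 and 0.585 CPM in the 4 libraries. Of 25 pluripotency genes 2 rose and 5 fell, and Pou5f1, the defining factor, was at 4.41 and 2.46 CPM at EB8 and 2.38 and 2.95 CPM at DIV7 (adjusted p = 0.814 by limma).

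Factors that control splicing are described by gene. Of 49 regulators of alternative splicing, 6 rose and 10 fell (median -0.49). Over all genes tested 15.7% rose and 11.7% fell, so the share of regulators that rose was not above that of all genes. Ptbp1, the repressor of neuronal exons, was at 231 and 234 CPM at EB8 and 80.6 and 67.9 CPM at DIV7, without overlap (-1.64 ± 0.20, adjusted p = 7.03e-07). Celf6 was at 19.8 and 19.5 CPM at EB8 and 85.5 and 82 CPM at DIV7 (2.04 ± 0.12, adjusted p = 1.78e-12), and Rbfox1, a factor of mature neurons, was at 52 and 57 CPM at EB8 and 154 and 163 CPM at DIV7 (1.52 ± 0.14, adjusted p = 2.78e-09). Both of these neuronal regulators were higher in every DIV7 library. Celf4 rose by 1.84 ± 0.12, Khdrbs2 by 1.51 ± 0.14, Elavl2 by 1.33 ± 0.12 and Celf5 by 1.12 ± 0.12, which completes the 6. Celf5 was under 2-fold when scaled to total spliced reads (0.94) and under quantile normalization (0.97). Rbm38, an RNA-binding protein edited in another line of the series, was at 33.3 and 31.9 CPM at EB8 and 7.44 and 4.93 CPM at DIV7 (-2.25 ± 0.18, adjusted p = 3.91e-10). Srrm4, the microexon activator, was at 38.1 and 44.5 CPM at EB8 and 31.9 and 26 CPM at DIV7 and was not called (-0.50 ± 0.15, adjusted p = 0.00564), and neither was Nova1 (0.48 ± 0.14, adjusted p = 0.00451). Of 40 genes of the core spliceosome, 0 rose and 4 fell (median -0.53), a share of falls near the 11.7% of all genes. Snrpb was among the 4, with 274 and 299 CPM at EB8 and 120.2 and 107 CPM at DIV7.

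Splicing was tested on 21311 events with at least 10 reads in every EB8 and DIV7 library of the line and WT and a mean PSI of 5% to 95%. Calls needed an adjusted p under 0.05 by limma together with at least 10 points of PSI. In the line 1797 events rose (8.43%) and 1247 fell (5.85%) from EB8 to DIV7. Of the 1938 genes with such an event 1923 were tested for expression, and 585 of them (30.4%) were also called there, close to the 27.4% of all genes tested.

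Microexons, exons of 3 to 27 nt, changed most often. Of 452 tested, 205 were more included in neurons (45.4%) and 24 less (5.31%). Their share of higher calls was 42.5% for the 179 of 3 to 15 nt and 47.3% for the 273 of 16 to 27 nt. Median inclusion of the 205 went from 40.6% to 82.7%, and 184 of them (89.8%) had a length that is a multiple of 3, against 76.7% of the microexons not called. Clasp2, a microtubule plus-end protein, held 5 of the 205 and Ptk2, the focal adhesion kinase, 3, so some microexons share a gene. The microexons with the largest changes are shown in capitals between 15 bases of the neighbouring exons, 5′ to 3′, from GENCODE M21 transcripts (GRCm38/mm10). All are coding there. The first 6 were gained in neurons.
Baz2b (27 nt, chr2:59933412-59933438, minus strand): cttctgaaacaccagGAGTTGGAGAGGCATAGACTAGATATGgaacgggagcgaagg
Pdlim7 (17 nt, chr13:55507864-55507880, minus strand): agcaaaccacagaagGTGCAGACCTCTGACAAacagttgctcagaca
Cadps (18 nt, chr14:12485641-12485658, minus strand): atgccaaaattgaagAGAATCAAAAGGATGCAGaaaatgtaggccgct
Tenm3 (21 nt, chr8:48287133-48287153, minus strand): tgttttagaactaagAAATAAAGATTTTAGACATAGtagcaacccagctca
Plch1 (23 nt, chr3:63699780-63699802, minus strand): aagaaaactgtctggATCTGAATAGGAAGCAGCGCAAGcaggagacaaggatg
Nrcam (12 nt, chr12:44597782-44597793, plus strand): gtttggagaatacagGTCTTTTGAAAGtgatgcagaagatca
The next 5 were lost in neurons.
Supt5 (12 nt, chr7:28330018-28330029, minus strand): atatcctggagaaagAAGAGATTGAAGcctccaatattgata
Macf1 (9 nt, chr4:123386549-123386557, minus strand): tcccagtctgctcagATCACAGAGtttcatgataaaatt
Cadps2 (15 nt, chr6:23320933-23320947, minus strand): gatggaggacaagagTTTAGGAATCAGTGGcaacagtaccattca
Agap1 (12 nt, chr1:89610284-89610295, plus strand): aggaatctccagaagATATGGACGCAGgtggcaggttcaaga
Gripap1 (27 nt, chrX:7794260-7794286, plus strand): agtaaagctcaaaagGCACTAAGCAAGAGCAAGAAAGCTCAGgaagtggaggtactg
Of these 11 sequences 9 have lengths that are multiples of 3, the exceptions being Pdlim7 and Plch1.

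The microexon of Baz2b, a bromodomain protein, had PSI values of 34.5% and 32.4% at EB8 and 98.2% and 98.1% at DIV7 (adjusted p = 3.68e-08 by limma). It went from a minority of transcripts to nearly all. That of Cadps, which primes dense-core vesicles for secretion, had values of 13.4% and 8.79% at EB8 and 72.4% and 75.7% at DIV7 (adjusted p = 1.67e-08 by limma). Nrcam, a neuronal adhesion molecule, carried its 12-nt microexon in 5.74% and 5.46% at EB8 and 67.2% and 62.2% at DIV7 (adjusted p = 1.67e-08 by limma). In all 3 the stages were far apart relative to the spread of the libraries. Tenm3, a teneurin of synaptic partner recognition, had 24.9% and 21.7% at EB8 and 83.2% and 84.7% at DIV7, and the actin-associated Pdlim7 had 12.9% and 15.1% at EB8 and 73.1% and 83.4% at DIV7. Plch1, a phospholipase C, had 24.9% and 26.8% at EB8 and 76.9% and 93.7% at DIV7, on 28 and 27 reads at DIV7. Among microexons lost in neurons, that of the elongation factor subunit Supt5 had 94.8% and 96.2% at EB8 and 38.2% and 33.4% at DIV7 (adjusted p = 3.72e-08 by limma). Macf1, a linker of microtubules and actin, had 62.5% and 62% at EB8 and 11.8% and 11.3% at DIV7. Agap1, a regulator of endosomal traffic, had 78% and 82.7% at EB8 and 34.8% and 45.8% at DIV7, and Gripap1, an endosomal partner of a glutamate receptor scaffold, had 73% and 68.8% at EB8 and 36.2% and 32.1% at DIV7. None of these overlapped between stages. Cadps2, the paralog of Cadps, had 75.6% and 56.8% at EB8 and 20.1% and 13.7% at DIV7 for its 15-nt microexon, on 15 and 18 reads at EB8. A 14-nt microexon of Spag4, for which no exact exon is in GENCODE M21, had 100% and 90.7% at EB8 and 26.5% and 28.6% at DIV7.

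**Figure D2:**
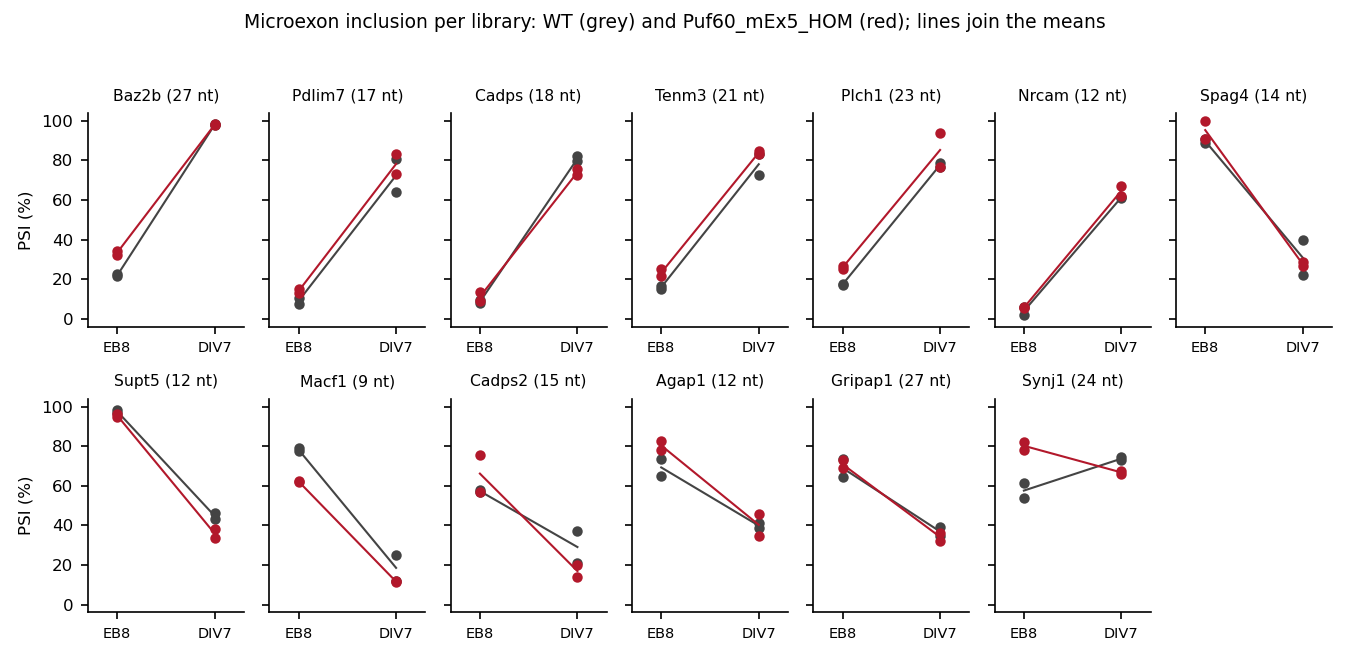
PSI (y axis, percent) at EB8 and DIV7 (x axis) for 13 microexons; points are single libraries, Puf60_mEx5_HOM in red and WT in grey, and lines join the means of the 2 libraries. The means of Baz2b to Nrcam are higher and those of Spag4 to Gripap1 lower at DIV7 in both lines, and that of Synj1 is lower in Puf60_mEx5_HOM and higher in WT.

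The other event classes changed less often. Of 7021 longer cassette exons 890 rose (12.7%) and 730 fell (10.4%), and lengths that are multiples of 3 made up 64.9% of the former, 50.1% of the latter and 42.8% of those not called. A 60-nt exon of Camk2d, a calcium-dependent kinase, had PSI values of 6.84% and 6.67% at EB8 and 85.1% and 82.8% at DIV7 (adjusted p = 2.31e-08 by limma). An exon of 126 nt in Atp11b, a phospholipid flippase, had 4.7% and 4.5% at EB8 and 87.5% and 86.8% at DIV7. The 69-nt exon of the kinase gene Map3k9 had 11.3% and 16% at EB8 and 85% and 86.8% at DIV7. These exons were in at most 16% of transcripts at EB8 and in most at DIV7. In the other direction, a 72-nt exon of Nova1, itself a neuronal splicing factor, had 77.8% and 81.5% at EB8 and 7.72% and 8.08% at DIV7, the lowest adjusted p of all events (7.57e-12 by limma). Calca, the gene of calcitonin and CGRP, had 85.4% and 87% at EB8 and 3% and 0.95% at DIV7 for a 704-nt exon. An 84-nt exon of the transcription factor gene Camta1 had 74.7% and 81.8% at EB8 and 13.5% and 5.28% at DIV7. The PSI of all 3 was high at EB8 and low at DIV7, but that of Calca rested on 1 of the exon's 2 junctions, with 268 reads against 2 and 200 against 1 at EB8.

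Retained introns rose in 519 of 7584 cases (6.84%) and fell in 337 (4.44%). Of these, 178 and 148 had unequal reads over their 2 ends in at least 4 of 8 libraries, by the authors' balance test. A fit without such introns, added after seeing the data, called 341 higher and 190 lower. Both introns named in Dbn1, the gene of the actin-binding drebrin, were retained less in neurons, with 89.4% and 87.3% at EB8 and 12.7% and 21.5% at DIV7 for that of 777 nt (adjusted p = 2.59e-05 by limma). The other, of 319 nt, had 82.3% and 84.4% at EB8 and 7.5% and 17.1% at DIV7. A 292-nt intron of Dlk1 had 35.5% and 28.4% at EB8 and 93.8% and 91.4% at DIV7, but reads over its ends at DIV7 numbered 0 against 1121 and 0 against 467. Alternative 3′ splice sites rose in 101 of 3644 cases and fell in 90. A 12-nt choice in Tacc2, a centrosomal coiled-coil gene, had 94.6% and 93.8% at EB8 and 43.5% and 41.5% at DIV7 (adjusted p = 1.31e-09 by limma). Nptn, an adhesion molecule of synapses, had 98% and 97.2% at EB8 and 61.1% and 53.4% at DIV7 for another 12-nt choice. Of 2610 alternative 5′ sites 82 rose and 66 fell, and a 69-nt choice in the deubiquitinase gene Usp5 had 23.8% and 26% at EB8 and 72.1% and 74.2% at DIV7 (adjusted p = 1.18e-09 by limma). No library of one stage reached the range of the other for these 3.

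**Figure D3:**
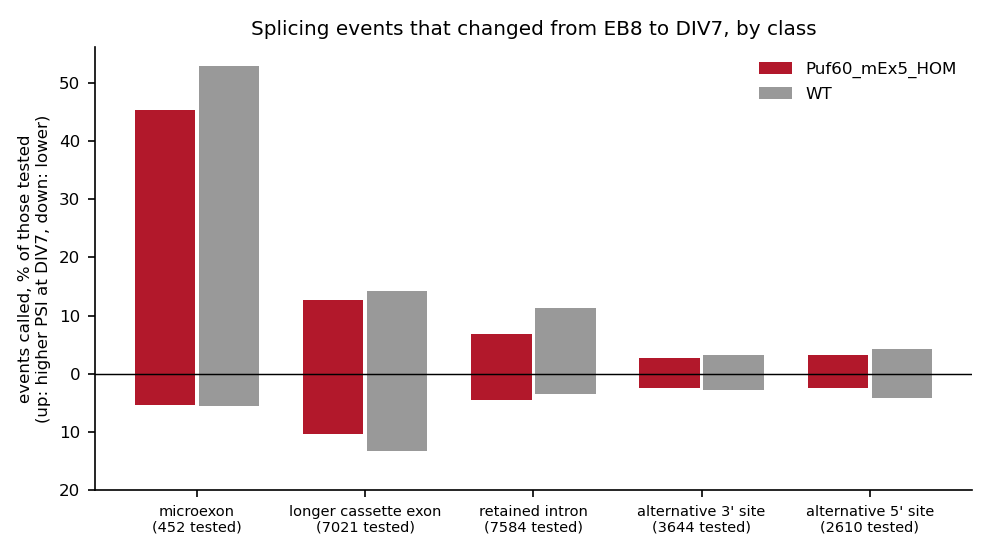
Share of tested events called between EB8 and DIV7 (y axis, percent, higher PSI at DIV7 above 0 and lower PSI below) by event class (x axis) in Puf60_mEx5_HOM (red) and WT (grey). Microexons stand out with 45.4% higher and 5.31% lower in Puf60_mEx5_HOM.

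The course of the line was then set against that of WT. Of its 3822 called genes 3343 were called in the same direction in WT, which is 87.5% of the line's calls and 79.4% of the 4212 WT calls, and 0 were called in the opposite direction. Across the 13929 genes the 2 courses had a correlation of r = 0.955 and a slope of 0.89, given as a description since genes share libraries. The test of the difference itself called 30 genes with a higher course in the line (0.215%) and 89 with a lower one (0.639%), while 2090 had an unadjusted p under 0.05. Without library B of the line at EB8 the counts were 9 and 51, and without library A of WT at EB8 they were 13 and 56. A lower course means a smaller rise or a larger fall than in WT.

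Of the 89 genes with a lower course, 59 were called higher than WT at EB8 and 0 lower, while 7 were lower and 0 higher at DIV7. Their median difference from WT was 1.13 at EB8 and -0.16 at DIV7. Over all genes tested, 163 were higher than WT at EB8 (1.17%) and 65 lower (0.467%), and at DIV7 26 were higher (0.187%) and 30 lower (0.215%). Of the 30 genes with a higher course 9 were lower than WT at EB8 and 8 higher at DIV7, with median differences of -0.63 and 0.47. The 2 comparisons with WT at a single stage use the same libraries as the difference of courses, so these counts describe it and do not add support.

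**Figure D4:**
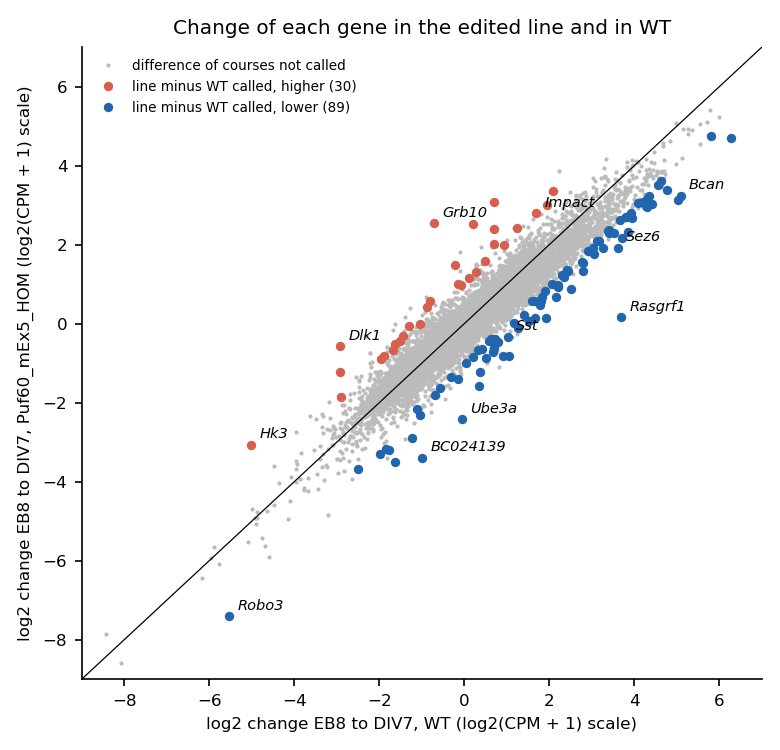
Log2 change from EB8 to DIV7 of each tested gene in WT (x axis) and in Puf60_mEx5_HOM (y axis), both on the log2(CPM + 1) scale; the diagonal marks equal change, red points are the 30 genes with a higher and blue points the 89 with a lower course in Puf60_mEx5_HOM, and grey points were not called. Of the 89 genes in blue 60 rose in WT and 40 in Puf60_mEx5_HOM, and Grb10, Ube3a and Rasgrf1 lie far from the diagonal.

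Neuronal genes were among those with a lower course. Sez6, a membrane protein of neuronal dendrites, was at 99.1 and 113 CPM at EB8 and 391 and 417 CPM at DIV7 in the line and at 30.9 and 35.3 CPM at EB8 and 410.2 and 419 CPM at DIV7 in WT. The lines overlapped at DIV7 and were apart at EB8, and the courses differed by -1.69 ± 0.23 (adjusted p = 0.00085 by limma). The neuropeptide gene Sst had 106 and 124 CPM at EB8 and 98.1 and 83.5 CPM at DIV7 in the line and 31.6 and 39 CPM at EB8 and 60.5 and 86 CPM at DIV7 in WT (-1.35 ± 0.25, adjusted p = 0.00556), and its own course was 1.02 in WT and -0.33 in the line, where it was not called. Of 29 genes of GABA and glycine transmission 6 had a lower course and 0 a higher one, among them Sst, the calcium-binding Calb1 and Calb2, the transporter Slc6a11 and the glycine receptor subunit Glra2. The calls of Slc6a11 and Glra2 were lost in 8 and 5 of 17 alternatives. Calb2 was at 13.9 and 9.08 CPM at EB8 and 55.9 and 64.9 CPM at DIV7 in the line and 4.68 and 4.12 CPM at EB8 and 78 and 74.5 CPM at DIV7 in WT (-1.52 ± 0.29, adjusted p = 0.00726). In the same list 8 genes were higher than WT at EB8, with a median difference of 0.72, against 0.02 over all genes. Of 35 genes of the vesicle cycle, 2 had a lower course, among them Rph3a. Rph3a, a Rab3 effector, was at 14.8 and 12.9 CPM at EB8 and 156 and 150.5 CPM at DIV7 in the line and 4.26 and 3.76 CPM at EB8 and 129 and 142 CPM at DIV7 in WT (-1.39 ± 0.24, adjusted p = 0.0034). Myt1l, a factor that represses non-neuronal genes, was at 107 and 118 CPM at EB8 and 219.6 and 230.1 CPM at DIV7 in the line and 50.6 and 50.9 CPM at EB8 and 196 and 233 CPM at DIV7 in WT (-1.07 ± 0.18, adjusted p = 0.00401). Its difference was -0.94 without library B of WT at DIV7, under 2-fold. Median courses of the synaptic lists were smaller in the line than in WT, 2.47 against 3.0 for the vesicle cycle and 2.00 against 2.64 for glutamate receptors and transporters. These medians were not tested, and only 2 of 35 genes of the former list and 0 of 35 of the latter had a called difference. The summed level of cell cycle genes was below WT at both stages. It was 3616 and 3609 CPM in the line and 6172 and 5304 CPM in WT at EB8. At DIV7 it was 1019 and 952 CPM in the line and 1518 and 1238 CPM in WT. Of these 34 genes 0 were called at either stage, and 0 had a called difference between the courses (median 0.2). The part of a different share of dividing cells in the differences of the neuronal genes was not tested.

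Among the genes with the largest differences, Robo3 had a course of -7.41 in the line and -5.53 in WT, where it was at 233 and 328 CPM at EB8 and 5.98 and 4.19 CPM at DIV7 (difference -1.88 ± 0.28, adjusted p = 0.00169). At DIV7 both libraries of the line were below both of WT. BC024139 was at 27.8 and 37.7 CPM at EB8 and 2.42 and 1.94 CPM at DIV7 in the line and 10.9 and 14.2 CPM at EB8 and 7.71 and 4.26 CPM at DIV7 in WT (-2.40 ± 0.38, adjusted p = 0.00234). Pmfbp1 had 54 and 60.1 CPM at EB8 and 4.26 and 4 CPM at DIV7 in the line and 30.9 and 34.8 CPM at EB8 and 12.8 and 7.54 CPM at DIV7 in WT (-1.86 ± 0.35, adjusted p = 0.00653). Each of these was higher than WT at EB8 in both libraries and lower at DIV7. The astrocyte genes Aldh1l1 and Bcan were higher in the line at EB8, 15.9 and 12.6 CPM and 14.5 and 12.6 CPM against 6.77 and 3.59 CPM and 5.53 and 3.5 CPM in WT. At DIV7 they were lower in every library of the line than in WT, but not called there (adjusted p = 0.337 and 0.564 by limma). The courses differed by -1.89 ± 0.39 (adjusted p = 0.0171 by limma) and -1.85 ± 0.46 (adjusted p = 0.0428 by limma). Of the 16 measured genes of the astrocyte list, which does not hold Bcan, 1 had a lower course than WT and 0 a higher one. At EB8 1 of them was called higher than WT, with a median difference of 0.3. Pdlim3, a muscle Z-disc protein, and Gm3764 followed with -1.94 ± 0.50 (adjusted p = 0.0495 by limma) and -1.86 ± 0.38 (adjusted p = 0.0125 by limma).

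In the other direction, Lpl, the lipoprotein lipase, was at 13.4 and 13.1 CPM at EB8 and 23.2 and 17.6 CPM at DIV7 in the line and 32.7 and 23.4 CPM at EB8 and 14 and 17.1 CPM at DIV7 in WT (1.38 ± 0.24, adjusted p = 0.00412). Both libraries of the line were below both of WT at EB8 and above both at DIV7. Hk3, a hexokinase, was at 10.1 and 10.4 CPM at EB8 and 0.334 and 0.35 CPM at DIV7 in the line and 49 and 31 CPM at EB8 and 0.424 and 0.0729 CPM at DIV7 in WT (1.95 ± 0.32, adjusted p = 0.00293). It fell in both lines, from a lower start in this one. Cit, the citron kinase of cytokinesis and neurons, was at 29.4 and 32.5 CPM at EB8 and 103 and 87.2 CPM at DIV7 against 46.6 and 46.9 CPM at EB8 and 59.5 and 73.5 CPM at DIV7 in WT (1.09 ± 0.20, adjusted p = 0.00556). The angiotensin receptor gene Agtr1a and the peptidase gene Mme differed by 1.71 ± 0.34 (adjusted p = 0.0105 by limma) and 1.05 ± 0.25 (adjusted p = 0.0315 by limma). Among genes with at least 5 RPKM in one of the groups compared, 16 are named here for the largest differences from WT, 8 positive and 8 negative. Of these 6 were called in all 17 alternative analyses: Ube3a, Grb10, Robo3, BC024139, Pmfbp1 and Lpl. Bcan lost its call in 12, Pdlim3 and Mme in 9 each, Aldh1l1 and Impact in 5 each, Agtr1a in 4, Gm3764 in 3, Cit in 2, and Hk3 and Dlk1 in 1 each.

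Genes subject to genomic imprinting, which are expressed from a single parental allele, stood among the largest differences in both directions. Reads were not assigned to alleles. Ube3a, a ubiquitin ligase whose paternal copy is silenced in neurons by an antisense transcript, was at 46.8 and 45 CPM at EB8 and 8.65 and 6.92 CPM at DIV7 in the line. In WT it was at 45.3 and 45.1 CPM at EB8 and 42.6 and 43.9 CPM at DIV7. Only the DIV7 libraries of the line were low, with a course of -2.42 ± 0.12 (adjusted p = 1.5e-13 by limma) and a difference from WT of -2.36 ± 0.17 (adjusted p = 2.46e-08 by limma). Snhg14, the host of that antisense transcript, was at 11.5 and 11.5 CPM at EB8 and 31.8 and 33 CPM at DIV7 in the line and 5.75 and 5.13 CPM at EB8 and 16.3 and 16.1 CPM at DIV7 in WT, higher in the line at both stages in every library, though not called at EB8 or DIV7 (adjusted p = 0.132 and 0.275 by limma). Snrpn, a paternally expressed gene of the same domain, was at 597 and 605 CPM at EB8 and 2334 and 2640 CPM at DIV7 in the line and 218 and 218 CPM at EB8 and 1265 and 1476 CPM at DIV7 in WT. The line was higher at both stages, by 1.46 ± 0.11 (adjusted p = 7.63e-09 by limma) at EB8 and 0.86 ± 0.11 (adjusted p = 7.59e-05 by limma) at DIV7, the latter under 2-fold. Whether counting used strand is not stated. The Ube3a values rest on reads across exon-exon junctions assigned to that gene, and whether any came from its antisense partner was not tested.

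Grb10, a growth regulator imprinted differently in neurons and other tissues, was at 2.5 and 3.01 CPM at EB8 and 19.9 and 22 CPM at DIV7 in the line. WT had 34.2 and 29.5 CPM at EB8 and 17.1 and 20.8 CPM at DIV7. The EB8 libraries of the line were the low ones, DIV7 overlapped with WT, and the courses differed by 3.28 ± 0.31 (adjusted p = 3.15e-06 by limma). Dlk1, a paternally expressed Notch-like ligand, was at 301 and 347 CPM at EB8 and 337 and 138 CPM at DIV7 in the line and 235 and 269.9 CPM at EB8 and 37.3 and 27.7 CPM at DIV7 in WT. Its course was -2.93 ± 0.29 (adjusted p = 3.21e-08 by limma) in WT and -0.58 ± 0.29 (adjusted p = 0.0817 by limma) in the line, a difference of 2.35 ± 0.41 (adjusted p = 0.00556 by limma). With only the 4 groups compared in the fit that adjusted p was 0.199. Its DIV7 libraries differed as the matrix genes did, with library A the higher, and the part of those cells was not tested. Impact, another paternally expressed gene, was at 67.4 and 63 CPM at EB8 and 413 and 504 CPM at DIV7 in the line and 65.1 and 59.3 CPM at EB8 and 165 and 247 CPM at DIV7 in WT (1.10 ± 0.23, adjusted p = 0.0185). Rasgrf1, a paternally expressed exchange factor of Ras, was at 0.0926 and 0.0646 CPM at EB8 and 0.167 and 0.233 CPM at DIV7 in the line. In WT it was at 0.0564 and 0.112 CPM at EB8 and 11.2 and 14.9 CPM at DIV7, so it rose in WT and stayed near 0 in the line, and the difference of courses was -3.53 ± 0.19 (adjusted p = 1.41e-10 by limma). Within the list of 22 measured imprinted genes, which holds neither Ube3a nor Rasgrf1, 3 had a higher course than WT and 0 a lower one. Over all genes tested these shares were 0.215% and 0.639%. In the line itself 9 of the 22 rose and 1 fell from EB8 to DIV7, beside 15.7% and 11.7% of all genes. Peg3 was at 30.2 and 26.4 CPM at EB8 and 269 and 275 CPM at DIV7, and Cdkn1c, a brake on the cell cycle, at 600 and 657 CPM at EB8 and 46.8 and 33.2 CPM at DIV7. Meg3, the maternally expressed neighbour of Dlk1, was at 25.5 and 31.6 CPM at EB8 and 64.3 and 106 CPM at DIV7 in the line and 52.7 and 88.4 CPM at EB8 and 359 and 355 CPM at DIV7 in WT, lower in the line at DIV7 (-2.10 ± 0.36, adjusted p = 0.00514), while its course did not pass the test of the difference (-0.86 ± 0.51, adjusted p = 0.459).

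**Figure D5:**
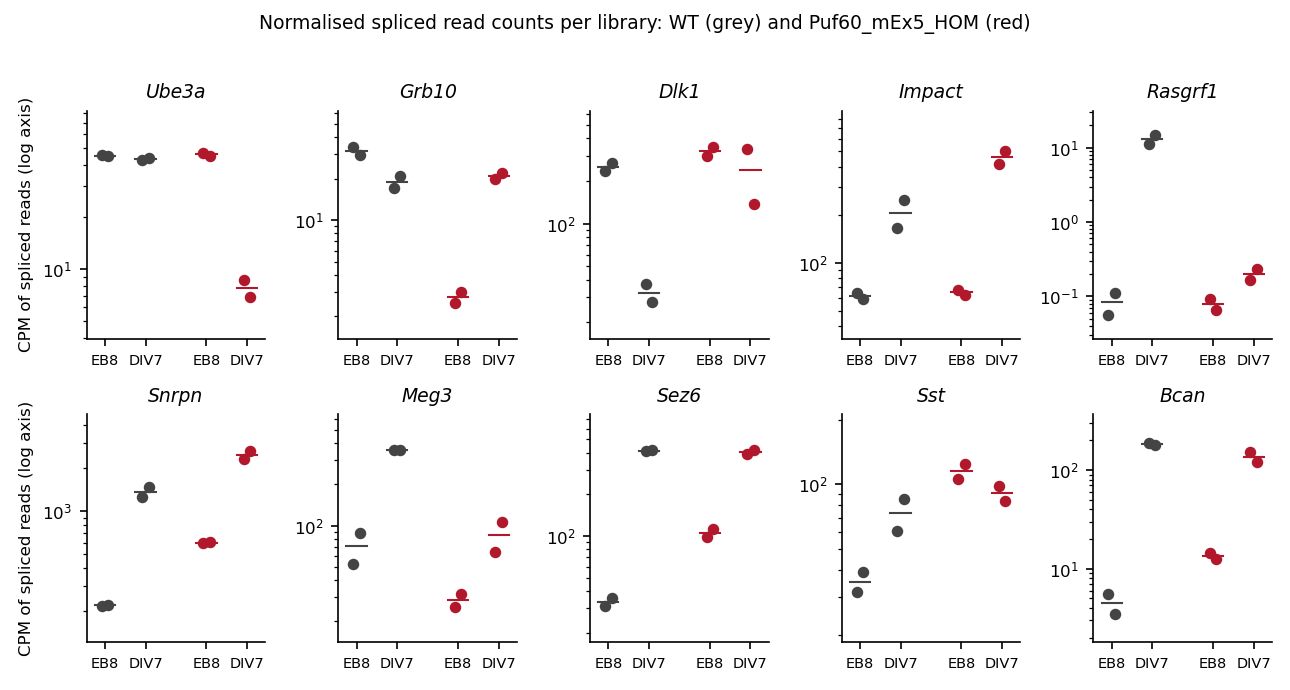
Normalised spliced reads per library (y axis, CPM, log axis, a scale of its own for each gene) at EB8 and DIV7 (x axis) in WT (grey) and Puf60_mEx5_HOM (red); points are libraries and bars their means. Ube3a is low only in the DIV7 libraries of Puf60_mEx5_HOM, Grb10 only in its EB8 libraries, and Rasgrf1 is near 0 except at DIV7 in WT.

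Against Puf60_pEx5_HOM, where the PSI of exon 5 was 94% to 96.5% at EB8 and 93.2% to 94.8% at DIV7, the course of the line was higher for 437 genes (3.14%) and lower for 957 (6.87%). Both comparisons use the libraries of this line, and 80 of the 89 lower and 21 of the 30 higher calls against WT were also called here. Sst, Vstm2l and Sez6 had the most negative differences with Rasgrf1. In Puf60_pEx5_HOM Sst was at 8.21 and 6.71 CPM at EB8 and 139.6 and 116 CPM at DIV7 (difference -4.26 ± 0.25, adjusted p = 2.02e-10), and Sez6 was at 7.94 and 7.52 CPM at EB8 and 510.3 and 529 CPM at DIV7 (-3.98 ± 0.23, adjusted p = 2.2e-10). The line's EB8 levels were the higher ones for both. Vstm2l differed by -3.85 ± 0.41 (adjusted p = 1.29e-06 by limma) and Rasgrf1 by -4.54 ± 0.19 (adjusted p = 7.93e-13 by limma), the latter with 0.0597 and 0.261 CPM at EB8 and 27.1 and 30.9 CPM at DIV7 in Puf60_pEx5_HOM. The most positive differences were those of Grb10 (5.10 ± 0.31, adjusted p = 4.7e-10), the basement membrane collagen Col4a1 (3.36 ± 0.52, adjusted p = 0.000136), the matrix protein Thbs2 (3.28 ± 0.53, adjusted p = 0.000141) and the growth factor Igf2 (3.23 ± 0.64, adjusted p = 0.00114). Col4a1 was at 422 and 289.6 CPM at EB8 and 2060 and 1500 CPM at DIV7 in the line and 285 and 366 CPM at EB8 and 195 and 126 CPM at DIV7 in Puf60_pEx5_HOM. In WT it also rose, from 754 and 564 CPM to 3356 and 1415 CPM. Against WT the courses of Col4a1 and Igf2 differed by 0.59 ± 0.52 and 1.17 ± 0.64, not called (adjusted p = 0.68 and 0.414 by limma). The fibroblast and matrix list summed to 6645 and 2681 CPM in the line and 1061 and 702 CPM in Puf60_pEx5_HOM at DIV7. The part of such cells in the differences from Puf60_pEx5_HOM was not tested. Across genes the courses of the 2 edited lines had a correlation of r = 0.889 and a slope of 0.71.

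Splicing showed no called difference between the course of the line and that of WT: 0 of 21311 events passed by limma (0%), with 1248 (5.86%) at an unadjusted p under 0.05 and a lowest adjusted p of 0.201. The same count was 1 with a pseudocount of 0.5 reads, 1 with the replicate letter in the fit and 1 without library B of the line at DIV7, and 0 in the other alternatives run. Changes in PSI had a correlation with WT of r = 0.911 across the 452 microexons and 0.871 across the 7021 longer cassette exons. For retained introns it was 0.744, and for alternative 3′ and 5′ sites 0.545 and 0.582. Of the 205 microexons that rose in the line 189 (92.2%) were also called in WT, which is 79.1% of the 239 that rose in WT. The 205 had a median change of 30.1 points in the line and 37.9 in WT, and 14 of them had an unadjusted p under 0.05 for the difference. The lowest p belonged to a 727-nt intron of Pfkp, a phosphofructokinase, with 58% and 61.1% at EB8 and 66% and 75.3% at DIV7 in the line and 44% and 41.6% at EB8 and 85.7% and 86.9% at DIV7 in WT. Its difference of -32.4 points is uncertain also because reads over its ends were unequal in 7 of 8 libraries. An 86-nt exon of the phosphodiesterase gene Pde4a had 73% and 84% at EB8 and 70.2% and 75.8% at DIV7 in the line and 33.3% and 25.6% at EB8 and 78.7% and 76.8% at DIV7 in WT (adjusted p = 0.37 by limma). It was low only in the EB8 libraries of WT, and 1 of its 2 junctions had 0 reads in all 8 libraries. With 2 libraries per group, a difference that missed the threshold does not show that the courses were alike.

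One microexon, in the synaptic phosphatase gene Synj1, which helps to recycle vesicles, was called in opposite directions in the 2 lines. It is coding in GENCODE M21 and is shown because no other event had this pattern.
Synj1 (24 nt, chr16:90971564-90971587, minus strand): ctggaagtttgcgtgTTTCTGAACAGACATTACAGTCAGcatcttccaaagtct
Its PSI was 82.2% and 78.2% at EB8 and 66% and 67.5% at DIV7 in the line and 53.9% and 61.2% at EB8 and 72.9% and 74.6% at DIV7 in WT. The line was above WT at EB8 and below it at DIV7 in every library. Its course was -13.5 points in the line (adjusted p = 0.0306 by limma) and 16.1 in WT (adjusted p = 0.0168 by limma). The difference of -29.6 points was not called (unadjusted p = 0.000173, adjusted p = 0.37 by limma), and the call in the line was lost in 5 of 12 alternatives, with an adjusted p of 0.0696 to 0.251 where a library was left out. Synj1 was chosen after its values were seen.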

How the data were processed

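RNA-seq libraries of polyA RNA (TruSeq Stranded, longer inserts per the labels' protocols) were compared within a splicing table and an expression table, both deposited by the authors. The splicing table gives, per library and event, the inclusion in percent (PSI) with a quality string of read numbers, per the file headers. The expression table gives 1 RPKM value per gene and group, deposited by the authors without replicates and used here only to compare levels between genes and to choose named genes. Salmon 0.14.1, edgeR and the build mm10 appear in the submitters' processing notes without their role. For the aligner, and for the use of strand in counting, nothing is given in the sources used here.

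As the RPKM values are not per library, expression was taken from the authors' deposited quality strings: the exon-exon junction reads of 189118 introns were summed over 25626 genes, so genes without introns are missed and a read over several introns counts more than once. Counts were scaled by median of ratios to CPM. Genes that reached 1 CPM in 2 or more libraries were fitted with limma 3.58.1 (trend, robust; R 4.3.3, data.table version 1.17.8) as log2(CPM + 1) over all 30 libraries in 15 groups. Differences of courses were contrasts of that fit. Splicing was fitted with limma, weighted by reads, as the log2 ratio of including to excluding reads with 1 read added to each, over the 20 EB8 and DIV7 libraries. P-values were Benjamini-Hochberg adjusted over each whole table. The fits were tested on simulated data. Tables, sequences and figures were made in Python 3.11.15 with pandas 2.3.3, numpy 2.4.6 and matplotlib 3.10.9.

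The members and gene lists were chosen with earlier results of these data known. The text names the 10 genes that rose and fell most, up to 3 called genes per list and direction, the 8 and 8 with the largest called differences from WT and the 4 and 4 from Puf60_pEx5_HOM (all with at least 5 RPKM except for the lists), and the 6 exons or 3 other events that changed most per class and direction. Other genes, such as Sez6, Sst, Calb2, Rph3a, Myt1l and Rasgrf1 against WT, Snhg14, Snrpn and Meg3, and the events of Pfkp and Pde4a were chosen after their values were seen. Alternatives changed the scaling, pseudocount, filter, model, libraries in the fit and the replicate letter. A few genes that this rule names, and the sequence of Puf60 exon 5, are not reported here.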

Additional observations from a re-analysis of the deposited data

Results flagged for a closer look

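The test of the difference between courses called 30 genes with a higher and 89 with a lower course in Puf60_mEx5_HOM than in WT, and 437 higher and 957 lower against Puf60_pEx5_HOM. Among genes with at least 5 RPKM in one of the groups compared, the largest positive differences from WT, on the log2 scale by limma, were Grb10 3.28, Dlk1 2.35, Hk3 1.95, Agtr1a 1.71, Lpl 1.38, Impact 1.1, Cit 1.09 and Mme 1.05. The largest negative ones were BC024139 -2.4, Ube3a -2.36, Pdlim3 -1.94, Aldh1l1 -1.89, Robo3 -1.88, Gm3764 -1.86, Pmfbp1 -1.86 and Bcan -1.85. Against Puf60_pEx5_HOM they were Grb10 5.1, Col4a1 3.36, Thbs2 3.28 and Igf2 3.23 on one side, and Rasgrf1 -4.54, Sst -4.26, Sez6 -3.98 and Vstm2l -3.85 on the other. Each of these values is a difference between the changes of 2 lines from EB8 to DIV7, which is why a closer look is warranted. The 2 comparisons share the libraries of Puf60_mEx5_HOM. No group had more than 2 libraries, so no single library could be tested as standing apart.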

How the results depend on the processing

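The course of Puf60_mEx5_HOM called 3806 to 3912 genes when 1 of its libraries was left out and 3822 with the replicate block. It called 4850 with voom weights and 4604 with a pseudocount of 0.25 CPM. Quantile normalization gave 2032 higher and 1931 lower. The difference from WT, 119 genes in all, ranged from 60 to 146 when a library was left out: 60 without library B of the line at EB8 and 69 without library A of WT at EB8. Voom weights gave 15 higher and 126 lower (10.6% higher, against 25.2%), the fit of only the groups compared 16 and 85, and the replicate block 29 and 93. The difference from Puf60_pEx5_HOM (1394 genes) ranged from 1222 to 1512 when a library was left out, was 1806 with a pseudocount of 0.25 CPM and 1689 with voom weights, and was 437 higher and 956 lower with the replicate block. Events of the course ranged from 2221 to 2702 when a library was left out, against 3044, and were 2928 with the replicate block. Events that differed from WT numbered 1 with a pseudocount of 0.5 reads and 1 with the replicate block, both the Dlk1 intron with its one-sided reads. They ranged from 0 to 1 when a library was left out, the 1 being the Pfkp intron without library B of the line at DIV7, with 0 in the other alternatives run. Replicate letters are not stated to pair libraries. Deviations at EB8 and DIV7 correlated at 0.03 in the line, 0.107 in WT and -0.131 in Puf60_pEx5_HOM over 9239 genes. Within a stage, however, those of the line and WT correlated at 0.069 at EB8 and 0.668 at DIV7, and 5 of the 10 pairs of lines were above 0.1 at either stage, from -0.319 to 0.655 at EB8 and from -0.276 to 0.714 at DIV7. A fit with the replicate block within each stage, added after seeing the data, called 58 genes higher and 113 lower than WT, among them all 119, and 0 events.

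Signs differed from the reported fit in 8 values of 5 results that had not been called. Vstm2l, whose course was 0.09, was -0.09 under total scaling, -0.15 under quantile normalization, and -0.38 to 0.55 when a library was left out. Left-out libraries gave Dlk1 values from -1.22 to 0.06, Pou5f1 from -0.57 to 0.08, and Puf60 exon 5 from -2.8 to 0.29 points. The Y-linked Eif2s3y, with 0 reads and a change of 0, had no direction to reverse and was 0.01 under quantile normalization and 0.35 with voom weights. The causes were not tested. Depth limits low genes and events of few reads, such as the microexons of Plch1 and Cadps2, and with 2 libraries per group smaller differences between courses may go uncalled.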
